A study of Drosophila melanogaster with 12 samples.

Results

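The transcriptomes of heads from Aβ42 flies that also carried a truncated form of the protease Yip7 (AD + Yip7∆S) were compared with those of Aβ42 flies without it (AD). The comparison holds 6 of the 12 samples of the series, 3 in each group, chosen by the genotype in their descriptions, and covers the 10577 of 14162 genes that passed a filter on low counts. AD + Yip7∆S flies expressed human Arctic Aβ42 and Yip7∆S under the pan-neuronal driver nSyb-Gal4, AD flies expressed Aβ42 alone, and in both the peptide was fused to the signal sequence of the fly protein Argos for secretion. The other 6 samples, used only for values set beside the comparison, were flies with Aβ42 and full-length Yip7 (AD + Yip7) and flies with the driver crossed to w1118 (Control). All were mated females kept at 29 °C, and every sample pooled several heads. Their age was 10 days by the descriptions, except that Control replicate 3 is described as 2 weeks old. The descriptions give the head as tissue but also speak of dissected brains. AD + Yip7∆S flies carried 2 UAS transgenes and AD flies 1, so Yip7∆S, its insertion site, the background of the line and the added UAS sites cannot be told apart. Both Yip7 transgenes were inserted at the same landing site and, by the study's methods, made into stable lines with the same crosses. They are still separate lines. Between AD + Yip7∆S and AD + Yip7, the truncation and any other difference between the lines therefore cannot be told apart. The study also reports less Yip7∆S protein than full-length Yip7 on blots of heads.

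Yip7 belongs to the Jonah group of serine proteases, enzymes that the fly makes in the midgut to digest dietary protein. Yip7∆S lacks the putative transmembrane stretch of the protein. Secreted Aβ42 forms deposits in the fly brain and is used to model amyloid pathology, and extracellular peptidases such as the neprilysins are known in mammals to break Aβ down. The comparison asks which head transcripts differ once the truncated protease is present together with Aβ42. Because whole heads were sequenced, neurons, glia, photoreceptors, muscle, fat body and any gut tissue left in the neck contribute to each sample, and fewer cells of a type cannot be told apart from less RNA per cell.

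Total counts per sample ran from 39888862 to 41112864 in AD + Yip7∆S and from 40047402 to 40565696 in AD, and the 10 most abundant genes took 17.4% to 21.2% of the counts across all 12 samples. A count of 3, the floor used for genes at 0, corresponds to 0.0710 to 0.0795 CPM (counts scaled to a common library total, here with totals adjusted by the TMM method). No pair of replicates had counts as close as sampling noise. By the study's methods the replicates were biological triplicates, each from a pool of heads. Neither the methods nor the descriptions say whether they were separate crosses, so the p-values measure the spread between these pools. Neuron markers were at high levels in every sample, as in a head. nSyb, a synaptic vesicle protein, had 1339, 1299 and 1132 CPM in AD + Yip7∆S, against 1199, 1139 and 1034 CPM in AD. The pan-neuronal gene elav had 79.4, 92.7 and 92.2 CPM in AD + Yip7∆S, against 102, 100.5 and 60.2 CPM in AD.

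The labels were checked on the transgenes. The yip7 gene had 73.8, 88.1 and 81.1 CPM in AD + Yip7∆S, against 157, 159 and 94.2 CPM in AD, with 135, 173 and 123 CPM in AD + Yip7 and 5.97, 0 and 6.07 CPM in Control. The 3 AD + Yip7∆S values lay below every AD value, but the difference was within the spread of the fit (log2 fold change -0.75 ± 0.63 SE, adjusted p = 0.639). Counts of yip7 were thus not higher in AD + Yip7∆S than in AD, and those of AD + Yip7 overlapped AD (log2 fold change 0.08, adjusted p = 0.976). Whether the counted reads include the transgene was not tested, so the groups are named here as their labels name them. The eye colour gene w, which also serves as the marker of the vector used for Yip7 transgenes, was higher, with 185, 181 and 184 CPM in AD + Yip7∆S, against 113, 108 and 141 CPM in AD (log2 fold change 0.61 ± 0.10 SE, adjusted p = 0.00804). It stood apart in both Yip7 groups from the other samples, with 213, 221 and 210.0 CPM in AD + Yip7 and 111, 115 and 108 CPM in Control. Counts of aos, the gene that gives Aβ42 its signal sequence, were 36.6, 34.4 and 35.9 CPM in AD + Yip7∆S, against 34.9, 35.1 and 31.2 CPM in AD (log2 fold change 0.08 ± 0.09 SE, adjusted p = 0.764), and these ranges overlapped. Both groups carried the Aβ42 transgene, so aos cannot check the Yip7∆S label.

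At an adjusted p under 0.05 (edgeR quasi-likelihood test, Benjamini-Hochberg adjustment), 196 genes, or 1.85% of those tested, differed between AD + Yip7∆S and AD. Of these, 92 (0.870%) were higher and 104 (0.983%) were lower in AD + Yip7∆S. The samples of the 2 groups did not overlap at any of the 196 genes, where 9.10% of all genes tested were separated upward and 8.95% downward. A difference of 2-fold or more was found at 98 of the 196 genes, 45 higher and 53 lower, and the smallest absolute log2 fold change among them was 0.39. Across all genes the median log2 fold change was 0.02. With upper quartile scaling in place of TMM the split was 68 higher and 143 lower. The count changed with the library left out: 74 genes passed without AD + Yip7∆S replicate 1, 214 without replicate 2, and 100, 89 and 79 without AD replicates 1, 2 and 3. Such fits also have fewer samples in 1 group, and the loss of power was not told apart from the weight of a library. Without AD + Yip7∆S replicate 3, 132 genes passed, 54 of them higher, and 56 of the 196 genes kept the call under every removal of 1 of the 12 libraries. For scale, the same test called 1996 genes (18.9%) between AD + Yip7∆S and Control, 2750 (26%) between AD and Control, 191 (1.81%) between AD + Yip7 and AD, and 7 (0.0662%) between AD + Yip7∆S and AD + Yip7. Comparisons that share AD samples are given side by side and not as independent evidence.

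**Figure D1:**
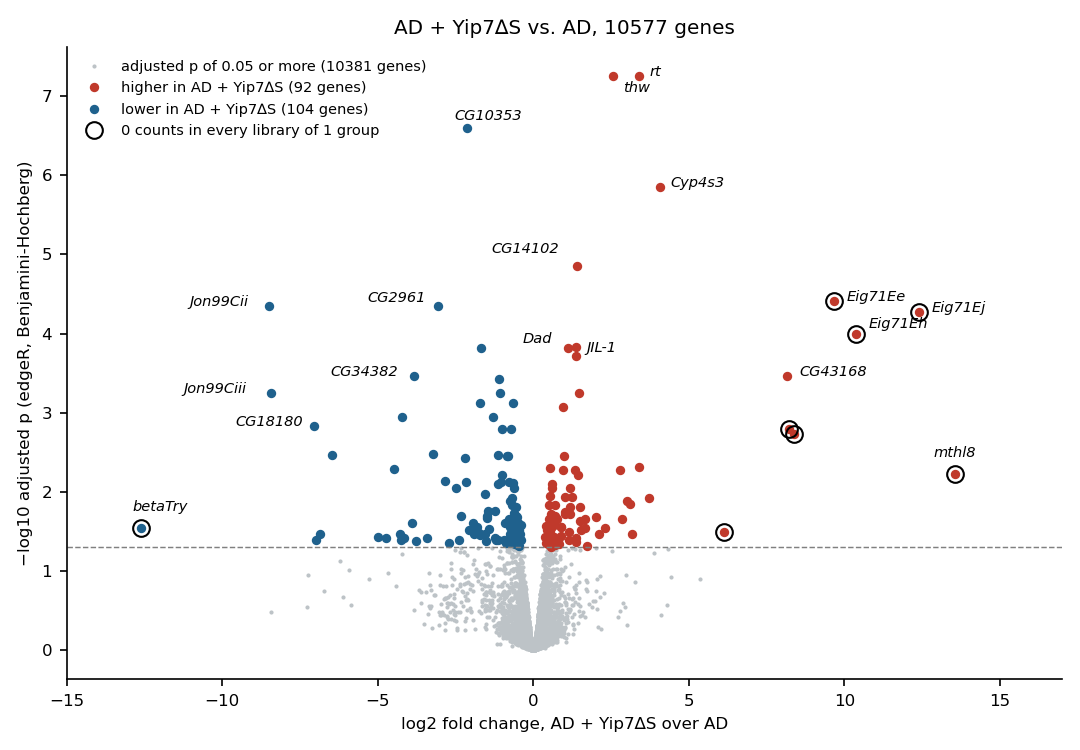
Each point is 1 of the 10577 genes tested, with the log2 fold change of AD + Yip7∆S over AD on the x axis and −log10 of the adjusted p on the y axis. The 92 genes higher in AD + Yip7∆S are red, the 104 lower ones blue, the dashed line marks an adjusted p of 0.05, and rings mark genes with 0 counts in every library of 1 group, whose fitted fold changes are no more than nominal.

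In AD + Yip7∆S, 4 genes were higher than in AD and also, in the direct test, higher than in AD + Yip7. The protein O-mannosyltransferase gene rt (chr3L:11584122-11587770, minus strand, dm6) had 99.9, 96.7 and 100.1 CPM in AD + Yip7∆S, against 8.77, 8.95 and 10.6 CPM in AD. The AD + Yip7∆S samples lay far above AD (10.5-fold in the fit). The other groups were close to AD, with 8.98, 7.89 and 7.84 CPM in AD + Yip7 and 6.56, 9.62 and 9.19 CPM in Control. This was the smallest adjusted p of the comparison, shared with thw (log2 fold change 3.39 ± 0.14 SE, adjusted p = 5.54e-08). The gene CG43168 (chr3L:6275787-6277035, plus strand) was close to absent elsewhere, with 25.3, 17.2 and 16.5 CPM in AD + Yip7∆S, against 0.0503, 0.0742 and 0.0713 CPM in AD (log2 fold change 8.17 ± 0.88 SE, adjusted p = 0.000344). Among the 9 samples of the other groups the highest was Control replicate 3, with 0.911 CPM.

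JIL-1, which encodes a chromosomal kinase of histone H3, had 159, 149.6 and 144 CPM in AD + Yip7∆S, against 60.5, 68.04 and 45.1 CPM in AD (log2 fold change 1.38 ± 0.14 SE, adjusted p = 0.000191). Nep3 encodes a neprilysin-like metallopeptidase and had 126, 173 and 163 CPM in AD + Yip7∆S, against 60.4, 66.98 and 40.7 CPM in AD (log2 fold change 1.46 ± 0.17 SE, adjusted p = 0.00056). For both genes every AD + Yip7∆S sample was above every sample of the other 3 groups, with Nep3 at 64.4, 58.3 and 56.1 CPM in AD + Yip7 and 72.4, 64.0 and 67.2 CPM in Control. Set directly against AD + Yip7, these 4 genes passed the threshold as the only higher genes of that test (0.0378% of genes tested, where 8.58% did not overlap upward). The log2 fold changes were 3.59 ± 0.14 for rt, 7.84 ± 0.85 for CG43168, 1.24 ± 0.14 for JIL-1 and 1.37 ± 0.17 for Nep3 (SE, adjusted p = 4.28e-08, 0.00158, 0.00174 and 0.00352). Their calls against AD were kept under every alternative that gave a value.

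Another 3 genes were lower in AD + Yip7∆S than in AD + Yip7 (0.0284%, where 8.27% did not overlap downward) without passing against AD. Ankle2 had 54.8, 62.2 and 51.1 CPM in AD + Yip7∆S, against 126, 178 and 161 CPM in AD + Yip7 and 58.3, 62.6 and 61.04 CPM in AD. Dhc16F, a gene for a dynein heavy chain, had 0.876, 1.04 and 0.752 CPM in AD + Yip7∆S, against 21.2, 10.8 and 20.5 CPM in AD + Yip7 and 0.452, 0.519 and 0.832 CPM in AD. For both it was AD + Yip7 that stood apart, while AD + Yip7∆S and AD differed by -0.11 (adjusted p = 0.723) and 0.56 (adjusted p = 0.585) on the log2 scale. The insulin-like peptide gene Ilp3 had 2.20, 2.18 and 2.54 CPM in AD + Yip7∆S, 5.49, 4.30 and 4.85 CPM in AD + Yip7, 2.71, 3.56 and 2.24 CPM in AD and 11.2, 12.6 and 11.9 CPM in Control. The AD + Yip7∆S and AD ranges overlapped (log2 fold change -0.30 ± 0.17 SE, adjusted p = 0.457), and AD + Yip7 was between them and Control.

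**Figure D2:**
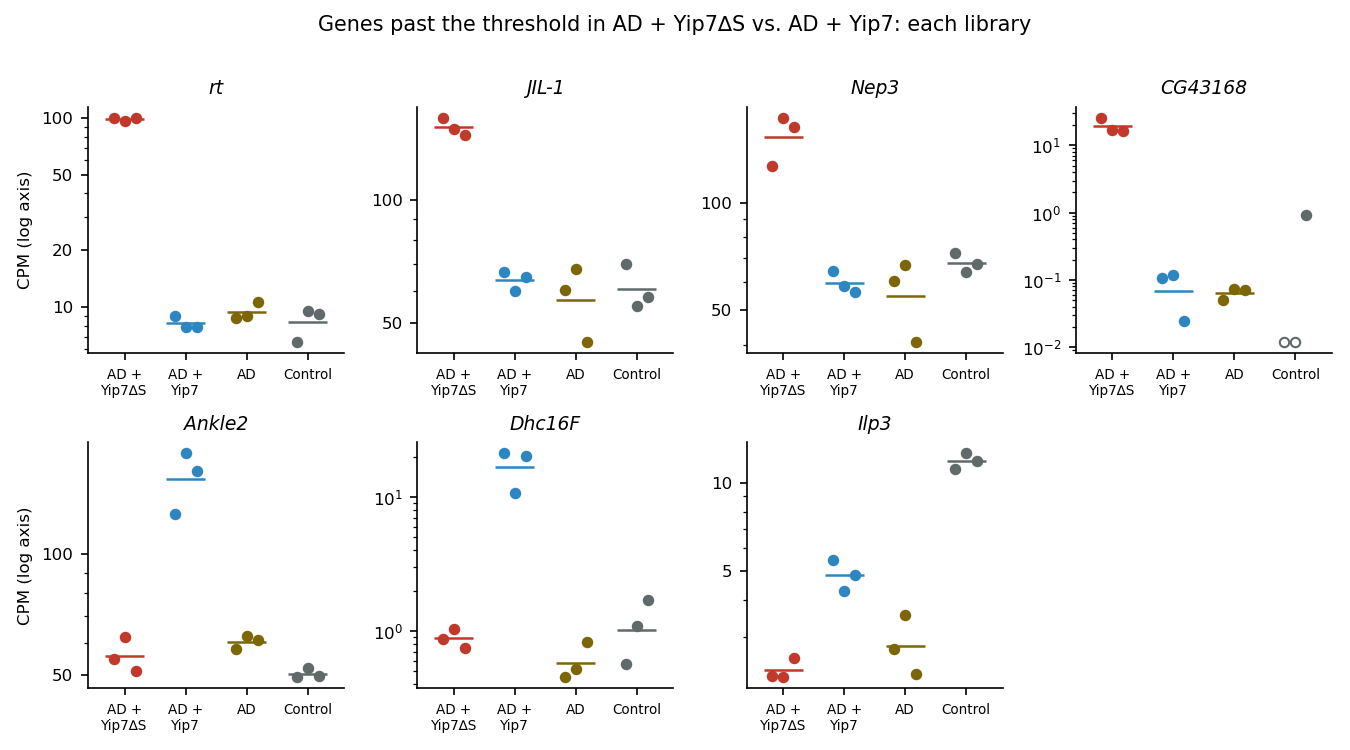
CPM on a log axis in each library (points) for the 7 genes past the threshold between AD + Yip7∆S and AD + Yip7, with lines at the geometric mean of the 3 libraries where none is 0, and open circles for libraries with 0 counts. In the upper 4 panels the AD + Yip7∆S points stand above the other 3 groups, as at rt, with 96.7 to 100.1 CPM against 6.56 to 10.6 CPM, and in the panels of Ankle2 and Dhc16F it is AD + Yip7 that stands apart.

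Other genes were high in both Yip7 groups and low in AD and Control. The gene thw (chr3R:7224414-7241138) had 45.7, 42.3 and 38.6 CPM in AD + Yip7∆S, against 6.58, 7.22 and 7.54 CPM in AD, with 36.6, 35.4 and 36.3 CPM in AD + Yip7 and 4.97, 4.13 and 3.93 CPM in Control. Every sample of both Yip7 groups was above every AD and Control sample (log2 fold change 2.57 ± 0.11 SE, adjusted p = 5.54e-08 for AD + Yip7∆S over AD). For AD + Yip7 over AD its log2 fold change was 2.34 (adjusted p = 3.18e-07). Dad, the inhibitory Smad that restrains BMP signalling, had 124, 129.6 and 141 CPM in AD + Yip7∆S, against 65.6, 65.7 and 49.6 CPM in AD (log2 fold change 1.12 ± 0.11 SE, adjusted p = 0.00015). Its AD + Yip7 samples had 118, 106 and 111 CPM and its Control samples 57.5, 56.2 and 55.8 CPM, so Control stood with AD. ClC-a, a chloride channel gene, had 273, 283 and 228 CPM in AD + Yip7∆S, against 131, 149 and 121 CPM in AD (log2 fold change 0.97 ± 0.12 SE, adjusted p = 0.000842), with 406, 361 and 345 CPM in AD + Yip7 and 147, 148 and 169.8 CPM in Control.

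CG14102 (chr3L:19798975-19801291) rose, with 16.3, 17.3 and 19.2 CPM in AD + Yip7∆S, against 6.61, 7.07 and 6.23 CPM in AD (log2 fold change 1.41 ± 0.10 SE, adjusted p = 1.40e-05), and AD + Yip7 was at 19.2, 18.2 and 17.3 CPM. It overlaps 2 genes on the other strand, the ionotropic receptor gene Ir76a (chr3L:19799278-19803427) and SREBP. Ir76a moved the other way, with 13.4, 13.6 and 16.7 CPM in AD + Yip7∆S, against 34.3, 28.7 and 31.5 CPM in AD (log2 fold change -1.11 ± 0.12 SE, adjusted p = 0.00037), and was the single called gene among 34 ionotropic and gustatory receptors tested (1.85% of all genes were called). Whether counting used the strand is not given in the sources used here, so reads of the 2 genes may be assigned to either. A row of 4 neighbouring ecdysone-induced genes at 71E, known from the larval salivary gland (chr3L:15654472-15661015), had 0 counts in every AD library. Eig71Ej had 13.4, 14.5 and 21.9 CPM in AD + Yip7∆S, at least 226-fold higher than the floor of 3 counts per AD library (adjusted p = 5.40e-05). Eig71Eh had 3.12, 3.98 and 5.16 CPM (at least 55.5-fold higher, adjusted p = 0.000102), Eig71Ee 2.41, 2.23 and 2.88 CPM (at least 34.1-fold higher, adjusted p = 3.87e-05) and Eig71Ef 0.710, 1.07 and 0.985 CPM (at least 12.5-fold higher, adjusted p = 0.00158). All 4 were also counted in every AD + Yip7 library and at under 1 CPM in Control, with Eig71Ej at 15.9, 14.97 and 14.2 CPM in AD + Yip7 and 0.472, 0 and 0.0720 CPM in Control. CG18586 showed the same pattern, with 0.615, 1.36 and 1.11 CPM in AD + Yip7∆S, 0.848, 0.808 and 1.03 CPM in AD + Yip7 and 0 counts in all AD and Control libraries. Against AD it was at least 14-fold higher (adjusted p = 0.00185), and it overlaps CG5568 on the same strand.

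At a further set of genes AD stood apart from the other 3 groups. CG10353 (chrX:11877737-11887162) had 114, 111 and 99.1 CPM in AD + Yip7∆S, against 509, 503 and 401 CPM in AD, with 120.0, 116 and 109 CPM in AD + Yip7 and 127, 124 and 129 CPM in Control. Every AD sample was above every other sample (log2 fold change -2.12 ± 0.11 SE, adjusted p = 2.56e-07). CG2961 had 0.710, 0.801 and 0.570 CPM in AD + Yip7∆S, against 6.13, 4.87 and 6.40 CPM in AD (log2 fold change -3.06 ± 0.26 SE, adjusted p = 4.45e-05). CG34382 had 1.25, 0.510 and 0.389 CPM in AD + Yip7∆S, against 10.6, 9.35 and 11.1 CPM in AD (log2 fold change -3.83 ± 0.41 SE, adjusted p = 0.000341). CG14143 had 0.0947, 0.0243 and 0.0519 CPM in AD + Yip7∆S, against 0.955, 1.11 and 1.31 CPM in AD (log2 fold change -4.23 ± 0.53 SE, adjusted p = 0.00114). Each of the 3 was also low in AD + Yip7 and Control, where no sample exceeded 1 CPM. A smaller step was seen at kat80, which encodes the regulatory subunit of the microtubule-severing enzyme katanin, with 54.8, 56.2 and 52.2 CPM in AD + Yip7∆S, against 85.9, 87.4 and 84.01 CPM in AD (log2 fold change -0.66 ± 0.08 SE, adjusted p = 0.000753). It was at 58.5, 57.3 and 57.9 CPM in AD + Yip7 and 53.2, 57.7 and 60.5 CPM in Control. CBP had 1.73, 2.23 and 1.56 CPM in AD + Yip7∆S, against 6.46, 6.48 and 5.23 CPM in AD (log2 fold change -1.72 ± 0.20 SE, adjusted p = 0.000753). Whamy, an activator of actin branching, had 1.63, 1.43 and 1.61 CPM in AD + Yip7∆S, against 5.53, 4.57 and 4.85 CPM in AD (log2 fold change -1.68 ± 0.17 SE, adjusted p = 0.00015).

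CG3097 was lower, with 36.8, 38.9 and 37.8 CPM in AD + Yip7∆S, against 75.9, 82.6 and 80.8 CPM in AD (log2 fold change -1.08, adjusted p = 0.00056). The long noncoding RNA lncRNA:CR42861 was lower as well, with 5.47, 4.88 and 6.30 CPM in AD + Yip7∆S, against 14.9, 13.2 and 13.1 CPM in AD (log2 fold change -1.31, adjusted p = 0.00114). In the other direction, mthl8, a receptor gene of the Methuselah-like family, had 0 counts in every AD library and 40.8, 13.9 and 55.7 CPM in AD + Yip7∆S. That was at least 499-fold higher than the floor of 3 counts per AD library (adjusted p = 0.00586). Levels of mthl8 were 11.1, 32.95 and 1.57 CPM in AD + Yip7 and 43.4, 44.4 and 40.0 CPM in Control, so both Yip7 groups varied between replicates far more than Control did. AD was also the lowest group at 2 cytochrome P450 genes on the X chromosome. Cyp4s3 had 3.43, 3.95 and 3.55 CPM in AD + Yip7∆S, against 0.226, 0.247 and 0.166 CPM in AD (log2 fold change 4.08 ± 0.24 SE, adjusted p = 1.40e-06). Cyp6t1 had 26.96, 27.7 and 31.7 CPM in AD + Yip7∆S, against 12.3, 11.8 and 9.42 CPM in AD (log2 fold change 1.36 ± 0.13 SE, adjusted p = 0.000149). Control was at 2.01, 2.42 and 2.81 CPM for Cyp4s3 and 17.2, 20.4 and 19.4 CPM for Cyp6t1, in both cases above every AD sample. The calls of these 12 genes, from CG10353 to Cyp6t1, were kept without each single library.

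**Figure D3:**
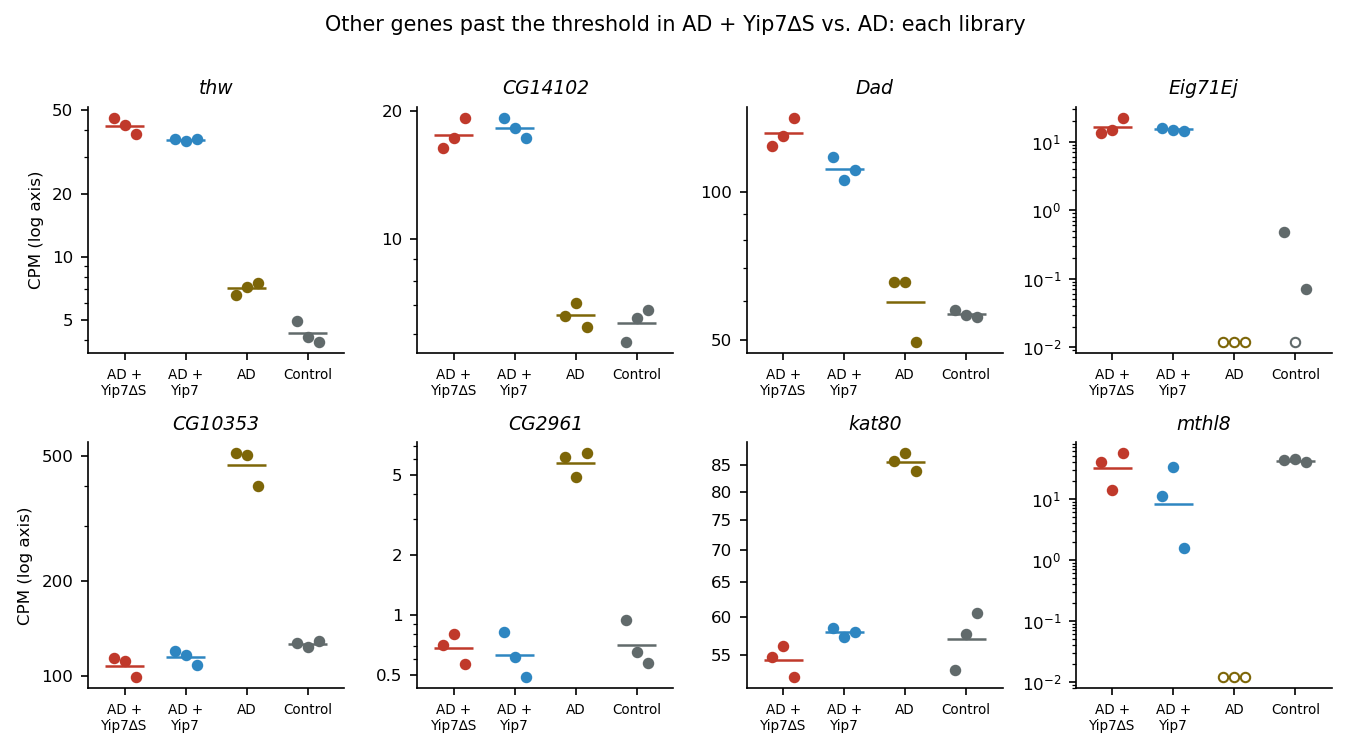
CPM on a log axis in each library (points) for 8 called genes, with lines at the geometric mean where no library is 0 and open circles for 0 counts. In the upper row both Yip7 groups are above AD and Control, as at thw, with 38.6 to 45.7 CPM in AD + Yip7∆S and 6.58 to 7.54 CPM in AD, and in the lower row AD is apart from all other groups, as at CG10353, with 99.1 to 114 CPM in AD + Yip7∆S and 401 to 509 CPM in AD.

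Some genes for digestive enzymes were lower in AD + Yip7∆S heads. Of 36 listed serine proteases, among them the Jonah and trypsin groups, 16 passed the filter on low counts, which a gene could pass through AD alone. Of these 16, 8 were lower and none higher at the threshold, beside 0.983% of all genes lower. Since members near 0 in AD + Yip7∆S entered the test through their AD values, no list median is given. For the same reason the count of lower members is weighted toward that direction. In AD + Yip7 over AD, under the same limit, 4 of the 16 were called lower and none higher (0.860% of all genes were lower). The direct test of AD + Yip7∆S over AD + Yip7 called none of the 16. There, 3 of them did not overlap downward (8.27% of all genes did not). Jon99Cii had 0.0710, 0.0243 and 0.130 CPM in AD + Yip7∆S, against 24.9, 35.9 and 22.6 CPM in AD. Its neighbour Jon99Ciii had 0.0710, 0.0243 and 0.0778 CPM in AD + Yip7∆S, against 18.7, 26.2 and 17.5 CPM in AD. AD + Yip7∆S was at the level of Control, with 0.0497, 0.0242 and 0.0240 CPM for Jon99Cii and 0, 0.121 and 0 CPM for Jon99Ciii, and AD was above both. The fitted log2 fold changes were -8.50 ± 0.72 and -8.43 ± 0.97 (SE, adjusted p = 4.45e-05 and 0.00056), values that depend on the prior count because AD + Yip7∆S had 1 to 5 reads per library. The third gene of this cluster, Jon99Ci, had 0.0947, 0.0243 and 0.0519 CPM in AD + Yip7∆S, against 1.01, 2.08 and 0.927 CPM in AD (adjusted p = 0.00511). CG18180 had 0.0473, 0.170 and 0.156 CPM in AD + Yip7∆S, against 12.4, 26.4 and 11.1 CPM in AD (adjusted p = 0.00146). Reads of near-identical Jonah and trypsin copies may be split between genes by the counting, so values of single members are uncertain.

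Of the other called proteases, 3 are trypsin genes and the fourth is Jon65Aiv. For betaTry no read was counted in AD + Yip7∆S, against 18.0, 24.3 and 15.5 CPM in AD, a level at least 261-fold lower with 3 counts per AD + Yip7∆S library as the floor (adjusted p = 0.0282). alphaTry had 0.0237, 1.70 and 0.0259 CPM in AD + Yip7∆S, against 76.4, 60.4 and 68.6 CPM in AD (adjusted p = 0.034). Jon65Aiv had 0.142, 0.849 and 0 CPM in AD + Yip7∆S, against 47.5, 48.5 and 32.8 CPM in AD (adjusted p = 0.04). For both genes AD + Yip7∆S replicate 2 was the highest of its group, and AD + Yip7 replicate 2 the highest of AD + Yip7, with 15.4 CPM of alphaTry and 17.9 CPM of Jon65Aiv. epsilonTry was near the floor, with 0.0237, 0.0485 and 0 CPM in AD + Yip7∆S, against 0.377, 1.63 and 0.594 CPM in AD (adjusted p = 0.0374).

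Among the 8 members that missed the threshold were Jon65Aiii (0.521, 4.80 and 0.0259 CPM in AD + Yip7∆S, against 110.4, 128 and 87.01 CPM in AD, adjusted p = 0.0973) and yip7 itself, while CG8329, the member with the most counts, had 1538, 1261 and 2255 CPM in AD + Yip7∆S, against 2226, 1573 and 2324 CPM in AD (adjusted p = 0.58). Of 17 other digestive enzyme genes tested, out of 39 listed, 2 were lower (0.983% of all genes were). The lysozyme gene LysD had 0.0473, 0.0485 and 0.104 CPM in AD + Yip7∆S, against 2.76, 11.9 and 3.66 CPM in AD (adjusted p = 0.00337). The maltase gene Mal-A1 had 7.03, 4.76 and 5.03 CPM in AD + Yip7∆S, against 8.67, 11.7 and 10.4 CPM in AD (adjusted p = 0.0435). The Mal-A1 step was small in comparison, and its call was lost without AD + Yip7∆S replicate 2 or 3, AD + Yip7 replicate 3, any AD library or Control replicate 3 (adjusted p up to 0.154).

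The count of called proteases depended on single libraries. It was 4 without AD + Yip7∆S replicate 1 or 3 or AD replicate 2 or 3, and 5 without AD replicate 1. The calls for Jon99Ci, Jon99Cii, Jon99Ciii and CG18180 were kept under each of these. The betaTry call was lost without AD + Yip7∆S replicate 1 or 3 or any AD library (adjusted p up to 0.0799). The alphaTry call was lost without AD + Yip7∆S replicate 1 or 3, any AD library or Control replicate 3 (adjusted p up to 0.127), and that for epsilonTry without any AD + Yip7∆S library or AD replicate 2 or 3 (adjusted p up to 0.132). Jon65Aiv lost its call without any AD + Yip7∆S library, any AD library or Control replicate 2 or 3 (adjusted p up to 0.151). When genes had to reach 10 counts in each library, those near 0 dropped out and no protease was called. Markers of the gut moved with these genes, and 6 of the 16 proteases are themselves among those markers. The 14 gut markers summed to 111.7, 412.1 and 109.2 CPM in AD + Yip7∆S and to 1430, 1393 and 969.8 CPM in AD, with 3 or 4 of the 14 at 0 in AD + Yip7∆S libraries and 0 to 2 in AD libraries. In AD + Yip7 they summed to 146.6, 632.3 and 171.1 CPM, and in Control to 144.5, 42.8 and 33.1 CPM. Of the 10 gut markers that passed the filter, some through AD alone, 6 were called lower (2 without AD + Yip7∆S replicate 3 or any AD library, 3 without AD + Yip7∆S replicate 1 or Control replicate 3). The part of gut tissue carried into the head samples in these differences was not tested.

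**Figure D4:**
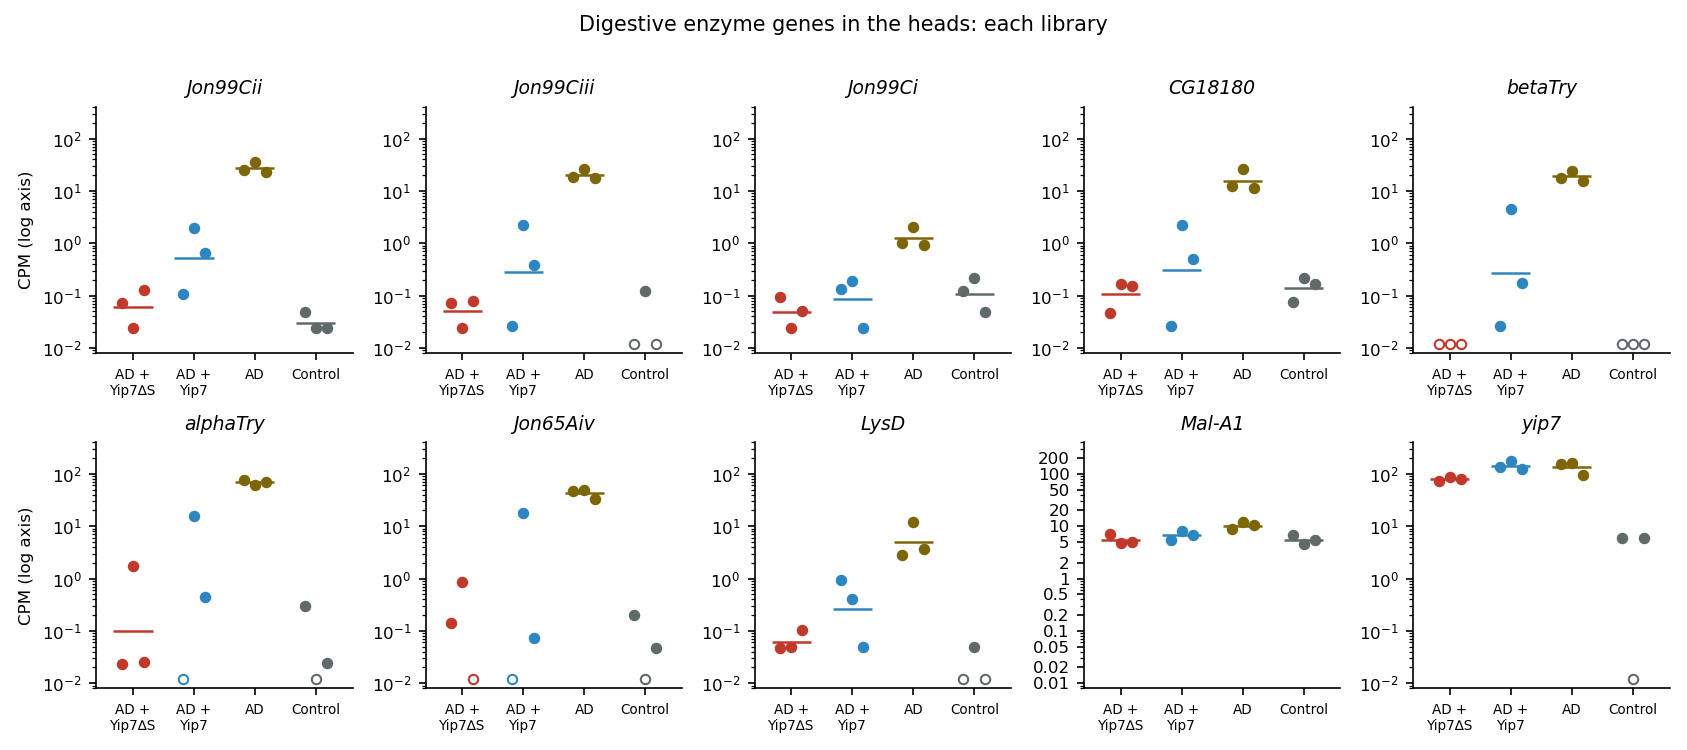
CPM on a log axis in each library (points) for 10 digestive enzyme genes, with lines at the geometric mean where no library is 0 and open circles for libraries with 0 counts. In the Jonah and trypsin panels the 3 AD libraries stand above every other library, as at Jon99Cii, with 0.0243 to 0.130 CPM in AD + Yip7∆S and 22.6 to 35.9 CPM in AD, while yip7 itself is at 73.8 to 88.1 CPM in AD + Yip7∆S and 94.2 to 159 CPM in AD.

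Some muscle genes were lower in AD + Yip7∆S. Of 11 muscle markers tested, 2 were called lower (0.983% of all genes were) and none higher, all 11 log2 fold changes were negative (47.1% of all genes were), and their median was -0.49. Act88F, the actin of the flight muscle, had 4.97, 6.43 and 8.24 CPM in AD + Yip7∆S, against 14.9, 14.9 and 13.3 CPM in AD (log2 fold change -1.14 ± 0.18 SE, adjusted p = 0.00804). Every AD + Yip7∆S sample was below every AD, AD + Yip7 and Control sample, since AD + Yip7 was at 13.8, 13.7 and 13.1 CPM and Control at 25.01, 17.6 and 15.9 CPM. Tropomyosin 2 (Tm2) had 212, 208 and 190.4 CPM in AD + Yip7∆S, against 274, 287 and 331 CPM in AD (log2 fold change -0.55 ± 0.10 SE, adjusted p = 0.0202), a call lost without AD + Yip7∆S replicate 1 or AD replicate 3 (adjusted p up to 0.0589). The other 9 markers, among them up with 269, 303 and 191 CPM in AD + Yip7∆S, against 345, 405 and 464 CPM in AD (adjusted p = 0.0636), did not pass. The muscle markers summed to 4019, 4236 and 4310 CPM in AD + Yip7∆S and to 5788, 5534 and 5893 CPM in AD.

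Muscle genes outside the list, chosen after their values were seen, went the same way. The gene for paramyosin (Prm) had 223, 234 and 203 CPM in AD + Yip7∆S, against 355, 333 and 358 CPM in AD (log2 fold change -0.67 ± 0.11 SE, adjusted p = 0.00772) and kept its call without each single library. Mlp60A, a muscle LIM protein gene, had 135, 145 and 178 CPM in AD + Yip7∆S, against 238, 224 and 277 CPM in AD (log2 fold change -0.69, adjusted p = 0.0145). Mp20 had 412, 501 and 503 CPM in AD + Yip7∆S, against 739.6, 686 and 931 CPM in AD (log2 fold change -0.73, adjusted p = 0.0273). The Mlp60A call was lost without AD + Yip7∆S replicate 1 or AD replicate 3 (adjusted p up to 0.0705). The Mp20 call was lost without AD + Yip7∆S replicate 1 or 3 or AD replicate 1 or 3 (adjusted p up to 0.109). Mp20 was lowest of all in Control (199, 187 and 159 CPM), so for this gene AD + Yip7∆S lay between Control and AD.

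A pair of genes for small heat shock proteins and a metallothionein gene, outside the lists and named after their values were seen, were also lower. l(2)efl had 92.9, 164 and 132 CPM in AD + Yip7∆S, against 269, 267 and 307 CPM in AD, with 112, 105 and 105 CPM in AD + Yip7 and 79.01, 75.8 and 69.98 CPM in Control. AD was above every other sample, AD + Yip7∆S was near AD + Yip7, and Control was lowest (log2 fold change -1.12 ± 0.16 SE, adjusted p = 0.00337). CG14207 had 202, 227 and 249 CPM in AD + Yip7∆S, against 312, 294 and 344 CPM in AD (log2 fold change -0.49, adjusted p = 0.0248), a call lost without AD + Yip7∆S replicate 1 or 2 or AD replicate 1 or 3 (adjusted p up to 0.0935). MtnA, which binds metal ions, had 172, 168 and 213 CPM in AD + Yip7∆S, against 304, 286 and 365 CPM in AD (log2 fold change -0.79 ± 0.13 SE, adjusted p = 0.00739). The calls for l(2)efl and MtnA were kept without each single library.

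Neuropeptide genes were among those that fell. Of 44 neuropeptide and hormone genes tested, 6 were lower and none higher, beside 0.983% and 0.870% of all genes, and the median of the 44 was -0.16. Hug, the hugin precursor known for its role in feeding circuits, had 10.01, 11.96 and 11.1 CPM in AD + Yip7∆S, against 23.1, 19.2 and 23.8 CPM in AD (log2 fold change -0.99 ± 0.16 SE, adjusted p = 0.00617). Its AD + Yip7∆S samples were below all others, with 15.5, 22.6 and 24.2 CPM in AD + Yip7 and 34.1, 39.6 and 35.2 CPM in Control. Akh, the adipokinetic hormone that the corpora cardiaca release to mobilise stored fat and sugar, had 6.63, 9.03 and 10.2 CPM in AD + Yip7∆S, against 37.5, 52.3 and 40.3 CPM in AD (log2 fold change -2.33 ± 0.44 SE, adjusted p = 0.0204). AD + Yip7∆S was at the level of Control replicates 2 and 3 (18.7, 8.67 and 3.96 CPM in Control), AD had the highest mean, and the call was lost without AD + Yip7∆S replicate 1 or 3 or AD replicate 2 or 3 (adjusted p up to 0.0906). CG14075, named here after its values were seen, had 7.93, 9.95 and 11.5 CPM in AD + Yip7∆S, against 33.4, 43.02 and 33.1 CPM in AD (log2 fold change -1.90, adjusted p = 0.034), a call lost without any AD + Yip7∆S library or any AD library (adjusted p up to 0.132).

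The other 4 called peptide genes had smaller steps or were near the detection limit. Capa had 33.5, 32.5 and 37.4 CPM in AD + Yip7∆S, against 47.6, 54.1 and 61.2 CPM in AD (log2 fold change -0.65, adjusted p = 0.0377). Crz, the corazonin precursor, had 7.65, 7.98 and 7.80 CPM in AD + Yip7∆S, against 9.78, 11.4 and 13.5 CPM in AD (log2 fold change -0.57, adjusted p = 0.04). FMRFa had 11.5, 13.4 and 12.9 CPM in AD + Yip7∆S, against 20.4, 18.6 and 19.4 CPM in AD (log2 fold change -0.63, adjusted p = 0.034). For Capa and Crz, AD + Yip7∆S was the lowest of the 4 groups, while for FMRFa AD was the highest. SIFa had 0.0237, 0.121 and 0.285 CPM in AD + Yip7∆S, against 0.578, 0.618 and 1.02 CPM in AD (adjusted p = 0.04), far below its Control level of 8.08, 9.11 and 8.37 CPM. The gene for its receptor, SIFaR, was lower as well, with 12.1, 12.6 and 10.6 CPM in AD + Yip7∆S, against 19.5, 19.4 and 16.0 CPM in AD (log2 fold change -0.64, adjusted p = 0.0435). None of these calls held without each single library. Capa lost its call without any AD + Yip7∆S library, AD + Yip7 replicate 3, AD replicate 2 or 3 or Control replicate 2 (adjusted p up to 0.128). Crz lost it without any AD + Yip7∆S library, AD + Yip7 replicate 2, AD replicate 2 or 3 or Control replicate 2 (adjusted p up to 0.132). FMRFa lost it without AD + Yip7∆S replicate 1 or 3, any AD library or Control replicate 3 (adjusted p up to 0.129). For SIFa this was the case without AD + Yip7∆S replicate 1 or 2, any AD library or Control replicate 2 or 3 (adjusted p up to 0.129), and for SIFaR without any AD + Yip7∆S library, AD + Yip7 replicate 3, any AD library or Control replicate 2 or 3 (adjusted p up to 0.142). Over the list, 1 to 6 genes were called as single libraries were left out.

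Among 36 genes for amyloid-degrading peptidases and processing of the Aβ precursor, 3 were higher and none lower (0.870% of all genes were higher), with a median log2 fold change of 0.18. Nep3 had the largest difference of the list. Nepl14 had 21.99, 22.4 and 22.01 CPM in AD + Yip7∆S, against 15.7, 12.6 and 16.7 CPM in AD (log2 fold change 0.56, adjusted p = 0.0273). Its neighbour Nepl15 had 133, 100.1 and 112 CPM in AD + Yip7∆S, against 71.8, 66.9 and 74.5 CPM in AD (log2 fold change 0.70, adjusted p = 0.0471). Both are neprilysin-like genes, and AD was the lowest group for each, with 79.5, 92.6 and 128 CPM in AD + Yip7 and 105, 130.2 and 117 CPM in Control for Nepl15. The Nepl14 call was lost without any AD + Yip7∆S library or AD replicate 1 or 2 (adjusted p up to 0.0875). The Nepl15 call was lost without AD + Yip7∆S replicate 1 or 3, AD + Yip7 replicate 2, any AD library or Control replicate 2 or 3 (adjusted p up to 0.174). Nepl13 (19.9, 19.5 and 18.6 CPM in AD + Yip7∆S, against 10.2, 10.3 and 15.4 CPM in AD, adjusted p = 0.0752) and Nepl21 (89.2, 97.1 and 104 CPM in AD + Yip7∆S, against 75.9, 62.6 and 72.1 CPM in AD, adjusted p = 0.0531) did not overlap between the groups but missed the threshold. The list had 1 to 4 called members as single libraries were left out.

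Some fat body and glia genes were also higher. The fat body gene apolpp, which encodes the precursor of the main lipid carrier of the hemolymph, had 6535, 7689 and 7675 CPM in AD + Yip7∆S, against 5305, 5262 and 4370.2 CPM in AD (log2 fold change 0.55 ± 0.13 SE, adjusted p = 0.0444). AD was lowest and Control highest (9486, 8808 and 8975 CPM). It was the one called gene of 9 fat body markers (0.870% of all genes were higher), whose median was 0.55. Of the 9, 8 were positive and 8 had an unadjusted p under 0.05 (52.9% and 15.1% of all genes). In AD + Yip7 over AD, 5 of the 9 were called higher (0.945% of all genes were), with a median of 0.92. The direct test of AD + Yip7∆S over AD + Yip7 called none of them, with a median of -0.29. The apolpp call was lost without any AD + Yip7∆S library, AD + Yip7 replicate 1 or 2, any AD library or Control replicate 2 or 3 (adjusted p up to 0.177). The larval serum protein gene Lsp2 had 152, 80.3 and 170.1 CPM in AD + Yip7∆S, against 11.4, 20.9 and 18.4 CPM in AD without passing (adjusted p = 0.113). The astrocyte-like glia gene alrm had 79.4, 60.3 and 78.3 CPM in AD + Yip7∆S, against 50.3, 44.4 and 45.6 CPM in AD (log2 fold change 0.64 ± 0.14 SE, adjusted p = 0.0383), a call lost without AD + Yip7∆S replicate 1 or 3, AD + Yip7 replicate 2, any AD library or Control replicate 2 or 3 (adjusted p up to 0.139). It was the one called gene of 8 glia markers tested (0.870% of all genes were higher at the threshold). All 8 were positive (52.9% of all genes were), with a median of 0.25. All 9 hemocyte markers were positive with a median of 0.40, but none passed in edgeR, where 4 had an unadjusted p under 0.05 (15.1% of all genes did), and 2 or 3 passed in DESeq2 fitted on all 12 or on the 6 samples. Among them crq had 166, 163 and 204 CPM in AD + Yip7∆S, against 149, 141 and 114 CPM in AD (adjusted p = 0.118) and Hml 128, 111 and 114 CPM in AD + Yip7∆S, against 82.5, 57.7 and 63.9 CPM in AD (adjusted p = 0.174).

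The stress peptide genes TotA and TotC rose with a wide spread. TotC had 54.5, 450.4 and 75.03 CPM in AD + Yip7∆S, against 13.5, 17.9 and 12.3 CPM in AD (log2 fold change 3.73 ± 0.65 SE, adjusted p = 0.0119). TotA had 125, 782 and 178 CPM in AD + Yip7∆S, against 33.6, 71.8 and 44.9 CPM in AD (log2 fold change 2.85 ± 0.55 SE, adjusted p = 0.022). AD + Yip7∆S replicate 2 was far above the other 2 libraries of its group for both, and the same library had 235 CPM of TotM, against 9.89 and 14.1 CPM in the other AD + Yip7∆S libraries and 7.46, 5.12 and 4.80 CPM in AD (adjusted p = 0.0592). AD was the lowest group for TotA and TotC, since Control had 183, 186 and 185 CPM of TotA and 59.4, 71.7 and 64.5 CPM of TotC. The TotC call was lost without AD replicate 1 or 3 (adjusted p up to 0.0644). The TotA call was lost without AD replicate 1 or 3 (adjusted p up to 0.089). They were the 2 called members of 23 JAK-STAT, Turandot and JNK stress genes tested, where 0.870% of all genes were higher. Without AD + Yip7∆S replicate 2 the log2 fold changes were 2.15 for TotC and 1.60 for TotA, and both calls were kept (adjusted p = 0.000471 and 0.012).

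Among pigment genes, e, which encodes the enzyme that couples β-alanine to dopamine and histamine, had 135, 70.7 and 65.1 CPM in AD + Yip7∆S, against 27.2, 28.5 and 29.7 CPM in AD (log2 fold change 1.67 ± 0.34 SE, adjusted p = 0.0286), a call lost without AD + Yip7∆S replicate 1 or any AD library (adjusted p up to 0.0981). The yellow gene y had 5.61, 2.18 and 2.77 CPM in AD + Yip7∆S, against 0.452, 0.519 and 0.238 CPM in AD (log2 fold change 3.12 ± 0.55 SE, adjusted p = 0.0143), a call lost without AD + Yip7∆S replicate 1 or AD replicate 1 or 3 (adjusted p up to 0.0657). In both genes AD was lowest and AD + Yip7∆S replicate 1 highest of its group. e was the 1 called gene of 27 dopamine, serotonin and octopamine genes tested (0.870% of all genes were higher). y is in none of the lists and was named after its values were seen. Of 16 eye pigment and transgene marker genes tested, w was the 1 higher and se the 1 lower gene (0.870% and 0.983% of all genes were), with a median of 0.09. The eye pigment gene se went the other way, with 36.4, 30.2 and 45.8 CPM in AD + Yip7∆S, against 65.7, 56.6 and 62.8 CPM in AD (log2 fold change -0.72 ± 0.15 SE, adjusted p = 0.0359), a call lost without AD + Yip7∆S replicate 1 or 2, AD + Yip7 replicate 1 or 2 or any AD library (adjusted p up to 0.121).

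Of 45 olfactory receptor genes tested, 3 were higher (0.870% of all genes were) and none lower, with a median of 0.10. In AD + Yip7 over AD, 5 of the 45 were called higher (0.945% of all genes were), with a median of 0.65. The direct test of AD + Yip7∆S over AD + Yip7 called none of them, with a median of -0.37. Or65b had 1.04, 0.801 and 0.544 CPM in AD + Yip7∆S, against 0.0251, 0.0742 and 0.119 CPM in AD (log2 fold change 3.39 ± 0.51 SE, adjusted p = 0.00481). Its neighbour Or65a had 0.757, 0.898 and 1.11 CPM in AD + Yip7∆S, against 0.101, 0.371 and 0.166 CPM in AD (log2 fold change 2.10, adjusted p = 0.0338). Or46a had 2.18, 1.67 and 2.90 CPM in AD + Yip7∆S, against 0.754, 0.668 and 0.927 CPM in AD (log2 fold change 1.52, adjusted p = 0.0231). In each case AD had the lowest mean of the 4 groups, and Control was at 0.721, 0.435 and 0.408 CPM for Or65b. The Or65b call was kept without each single library, while Or65a was lost without any AD + Yip7∆S library or AD replicate 1 or 3 (adjusted p up to 0.113). Or46a was lost without AD + Yip7∆S replicate 1 or 3 or any AD library (adjusted p up to 0.0901). Or65a lies within 50000 bp of CG43168 on 3L. Of 33 odorant-binding protein genes, 1 was higher and 1 lower at the threshold (0.870% and 0.983% of all genes were). Obp44a was higher, with 600.1, 375 and 433 CPM in AD + Yip7∆S, against 239, 143 and 257 CPM in AD (log2 fold change 1.14, adjusted p = 0.0321), a call lost without AD + Yip7∆S replicate 1 or 3 or any AD library (adjusted p up to 0.119). Obp19c was lower, with 6.08, 5.70 and 6.40 CPM in AD + Yip7∆S, against 8.42, 8.73 and 8.73 CPM in AD (log2 fold change -0.51, adjusted p = 0.0208), a call lost without AD + Yip7∆S replicate 1 or 2 or any AD library (adjusted p up to 0.0784).

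Of 75 cytochrome P450 genes tested, Cyp4s3, Cyp6t1 and Cyp4d20 were higher and Cyp6g2 was lower (0.870% and 0.983% of all genes were). Cyp6g2 had 2.11, 5.99 and 4.12 CPM in AD + Yip7∆S, against 16.7, 33.9 and 18.2 CPM in AD (log2 fold change -2.49 ± 0.41 SE, adjusted p = 0.00892) and was at 18.7, 18.1 and 16.2 CPM in AD + Yip7. Its AD + Yip7∆S samples lay below every AD and AD + Yip7 sample but overlapped Control (11.6, 10.8 and 4.17 CPM), and the call was kept without each single library. Cyp4d20 had 27.2, 23.02 and 26.8 CPM in AD + Yip7∆S, against 17.9, 18.9 and 19.7 CPM in AD (log2 fold change 0.45, adjusted p = 0.0298), a call lost without AD + Yip7∆S replicate 1 or 3 or any AD library (adjusted p up to 0.112). The glutathione S-transferase gene GstD2 was lower, with 2.51, 2.96 and 5.34 CPM in AD + Yip7∆S, against 11.8, 6.75 and 10.2 CPM in AD (log2 fold change -1.41, adjusted p = 0.0295), a call lost without AD + Yip7∆S replicate 1 or 2 or AD replicate 1 or 3 (adjusted p up to 0.111). It was the only called gene of the 46 antioxidant and glutathione S-transferase genes tested, where 1.85% of all genes were called. Single called members also came from the lysosomal list (24 genes tested) and the lipid list (28 genes tested), beside the same 1.85% of all genes. In the lysosomal list it was Hexo1, with 60.05, 59.7 and 57.8 CPM in AD + Yip7∆S, against 69.2, 85.03 and 80.9 CPM in AD (log2 fold change -0.41, adjusted p = 0.04), a call lost without any AD + Yip7∆S library, any AD + Yip7 library, AD replicate 2 or 3 or Control replicate 2 or 3 (adjusted p up to 0.152). In the lipid list it was sxe2, with 91.2, 72.2 and 90.6 CPM in AD + Yip7∆S, against 49.2, 52.6 and 62.2 CPM in AD (log2 fold change 0.63, adjusted p = 0.0404), a call lost without AD + Yip7∆S replicate 1 or 3, AD + Yip7 replicate 2 or 3, any AD library or Control replicate 2 or 3 (adjusted p up to 0.14).

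No gene passed in 22 of the 36 gene lists and 7 of the 11 marker lists. The 85 cytosolic ribosomal protein genes were 83 negative (47.1% of all genes were) and 2 positive with a median of -0.25, and none passed in edgeR. They summed to 82510, 87980 and 114600.0 CPM in AD + Yip7∆S, against 112100.0, 103200.0 and 121200.0 CPM in AD, so AD + Yip7∆S replicate 3 stood with AD. Without that library 6 passed and the median was -0.43, and without each other library 0 passed. Of the 85, 19 had an unadjusted p under 0.05 (15.1% of all genes did), and DESeq2 called 1 on all 12 samples and 0 on the 6 samples. RpL3 had 2313, 2469 and 2426 CPM in AD + Yip7∆S, against 2935, 2783 and 3263 CPM in AD (log2 fold change -0.32 ± 0.11 SE, adjusted p = 0.173), without overlap, and 2625, 2321 and 2293 CPM in AD + Yip7 and 2155, 2341 and 2121 CPM in Control. The median of this list stayed negative under every alternative run, between -0.43 and -0.15. For 35 cytosolic chaperone genes the median was -0.12, with 5 at an unadjusted p under 0.05, a share close to the 15.1% of all genes, 0 called in edgeR and 1 or 2 in DESeq2. The small heat shock genes l(2)efl and CG14207, called above, are not in this list. Hsp68 had 76.6, 92.7 and 69.5 CPM in AD + Yip7∆S, against 113, 101 and 133 CPM in AD (log2 fold change -0.54 ± 0.15 SE, adjusted p = 0.113). Hsp83 had 744, 986 and 844 CPM in AD + Yip7∆S, against 1292, 1015 and 894 CPM in AD (log2 fold change -0.31 ± 0.14 SE, adjusted p = 0.325), so the AD + Yip7∆S range overlapped AD for Hsp83 and not for Hsp68. In AD + Yip7 the same genes had 69.6, 49.2 and 66.8 CPM and 569, 471 and 510.2 CPM, with log2 fold changes over AD of -0.90 (adjusted p = 0.011) and -1.05 (adjusted p = 0.00288). The direct test of AD + Yip7∆S over AD + Yip7 called neither, with 0.36 (adjusted p = 0.455) for Hsp68 and 0.73 (adjusted p = 0.113) for Hsp83.

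The 27 genes for protein folding in the endoplasmic reticulum and the unfolded protein response had a median of 0.10, with 4 at an unadjusted p under 0.05 (15.1% of all genes were) and 0 called in edgeR or in either DESeq2 fit. Herp had the smallest p of the list, with 117, 119 and 120.3 CPM in AD + Yip7∆S, against 109, 102 and 99.4 CPM in AD (log2 fold change 0.20 ± 0.08 SE, adjusted p = 0.242). The chaperone gene Hsc70-3 had 3925, 3629 and 2841 CPM in AD + Yip7∆S, against 3079, 2975 and 3281 CPM in AD (adjusted p = 0.662). Of 9 neuron markers none passed and none had an unadjusted p under 0.05, and their median was 0.01, also with 0 called in DESeq2. The 15 antimicrobial peptide genes had a median of -0.23, with 1 at an unadjusted p under 0.05, 0 called in edgeR and in DESeq2 on all 12 samples, and 2 in DESeq2 on the 6 samples. Drs, the antifungal peptide drosomycin, had 7.05, 2.23 and 5.55 CPM in AD + Yip7∆S, against 18.6, 8.09 and 9.63 CPM in AD (adjusted p = 0.193), with AD + Yip7 at 24.3, 18.7 and 21.7 CPM. The 68 respiratory chain and ATP synthase genes had a median of -0.10, with 10 at an unadjusted p under 0.05, beside 15.1% of all genes, and 0 called in edgeR (1 and 0 in the DESeq2 fits).

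**Figure D5:**
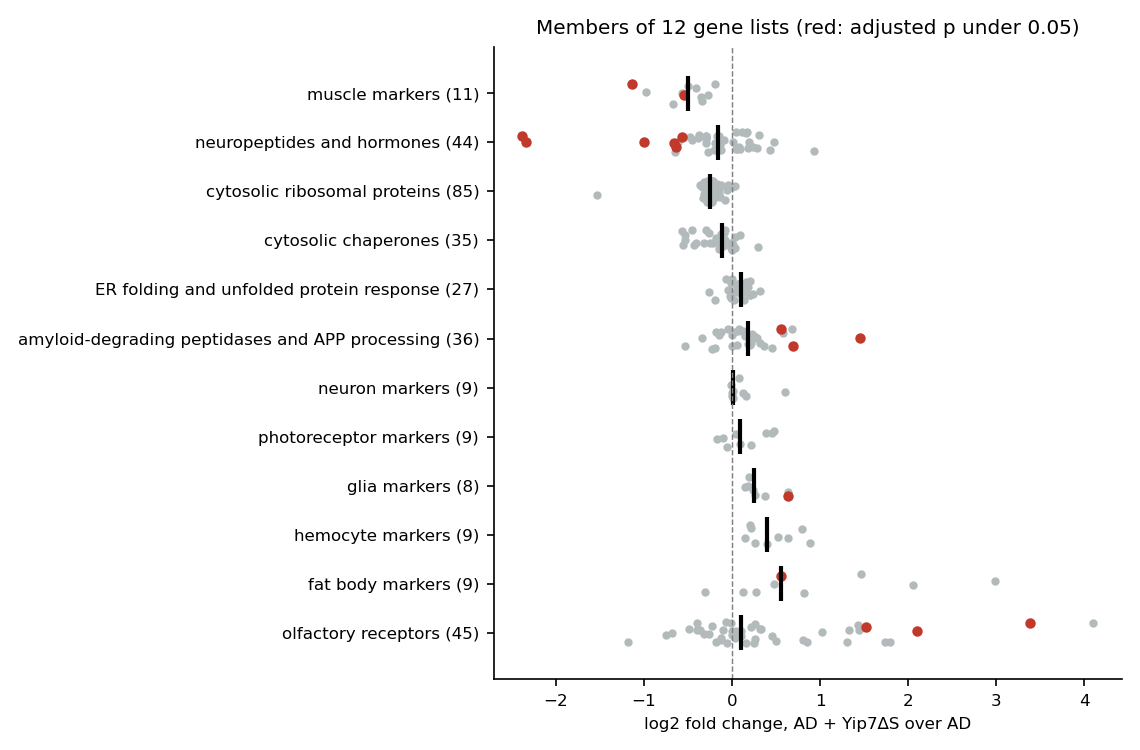
Each point is a gene, placed by its log2 fold change of AD + Yip7∆S over AD (x axis), for 12 gene lists with the number of members tested in parentheses. Red points passed an adjusted p of 0.05 and black ticks are list medians, which run from -0.49 for muscle markers to 0.55 for fat body markers, with neuron markers at 0.01.

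The study's text on these transcriptomes names a set of genes, not all of them as changed by Yip7, of which 37 could be tested. The list was drawn up on these samples and is therefore no independent evidence of its direction. In AD + Yip7∆S over AD none passed in edgeR, 10 had an unadjusted p under 0.05 (15.1% of all genes did), and DESeq2 called 4 on all 12 samples and 1 on the 6 samples, with a list median of 0.10. In AD + Yip7 over the same AD samples 9 passed (7 higher and 2 lower, where 0.945% and 0.860% of all genes were), with a median of 0.28. CG4335 had 29.2, 36.4 and 37.0 CPM in AD + Yip7∆S, against 22.6, 25.4 and 25.7 CPM in AD (log2 fold change 0.48 ± 0.11 SE, adjusted p = 0.0535), just short of the threshold, and 32.2, 34.9 and 39.3 CPM in AD + Yip7 (log2 fold change over AD 0.53, adjusted p = 0.0385). The adipokinetic hormone receptor gene AkhR had 60.3, 61.2 and 63.1 CPM in AD + Yip7∆S, against 52.1, 54.0 and 50.4 CPM in AD (log2 fold change 0.24, adjusted p = 0.261), and 74.7, 86.8 and 87.8 CPM in AD + Yip7 (log2 fold change over AD 0.67, adjusted p = 0.00366). Ahcy, an enzyme gene of the methionine cycle, had 149, 188 and 152 CPM in AD + Yip7∆S, against 188, 199 and 213 CPM in AD (log2 fold change -0.29, adjusted p = 0.34), and 128, 92.2 and 130.0 CPM in AD + Yip7 (log2 fold change over AD -0.78, adjusted p = 0.0132). For AkhR and Ahcy the mean of AD + Yip7∆S lay between those of AD + Yip7 and AD. The direct test of AD + Yip7∆S over AD + Yip7 gave -0.43 (adjusted p = 0.163) for AkhR and 0.48 (adjusted p = 0.271) for Ahcy, and in it 1 of the 37 genes, Ilp3, passed. The ornithine aminotransferase gene Oat had 37.9, 56.6 and 39.5 CPM in AD + Yip7∆S, against 24.9, 23.9 and 35.9 CPM in AD (log2 fold change 0.66, adjusted p = 0.185). The inflammatory cytokine gene upd3 had 0.426, 0.267 and 0.648 CPM in AD + Yip7∆S, against 1.76, 1.09 and 1.38 CPM in AD (log2 fold change -1.65, adjusted p = 0.167).

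The called genes were spread over the chromosomes unevenly. On the X chromosome 48 of 1707 genes tested were called (2.81%) and on 3L 54 of 2033 (2.66%), against 46 of 2541 on 3R (1.81%), 30 of 2156 on 2R (1.39%), 16 of 1844 on 2L (0.868%) and 1 of 86 on chromosome 4. Of the 195 called genes with a location, 55 lay within 50000 bp of another called gene, in 24 groups. Besides the clusters named above, the chorion genes Cp7Fb and Cp7Fc were adjacent on the X chromosome and both higher. Cp7Fb had 1.44, 2.96 and 2.62 CPM in AD + Yip7∆S, against 0.352, 0.297 and 0.357 CPM in AD (log2 fold change 2.79, adjusted p = 0.00529). Cp7Fc had 0.521, 0.582 and 0.985 CPM in AD + Yip7∆S, against 0.151, 0.0495 and 0.0238 CPM in AD (log2 fold change 3.18, adjusted p = 0.0344), a call lost without AD + Yip7∆S replicate 1 or 3, AD replicate 2 or 3 or Control replicate 3 (adjusted p up to 0.13). The 3 ovary and eggshell markers that could be tested were not called. All 3 went the other way, with negative log2 fold changes (47.1% of all genes had these) and a median of -0.61. In the annotation, Cyp4s3, CG34382, l(2)efl, Cyp6g2, Mal-A1, SIFa, Obp44a, se, Hexo1 and apolpp overlap a gene on the other strand and Or46a one on the same strand, so reads at these genes may be assigned to either partner. Of the 196 called genes, 155 were in none of the lists and 88 are known by a CG or long noncoding RNA identifier alone.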

How the data were processed

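Heads of mated females were sequenced in 12 samples of 4 groups, 3 each, grouped by the genotype in their descriptions. The deposited values are counts of reads per gene, made by the authors without normalization: by the study's methods reads were trimmed with fastp, aligned with HISAT2 and counted with HTSeq-count, while the submitters' processing notes list HISAT2 2.1.0, StringTie 1.3.1, DESeq2 1.36.0 and the dm6 build. The strand setting and annotation release are not given in the sources used here.

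From the deposited counts, genes with enough reads were kept (edgeR filterByExpr on 4 groups) and tested in 1 edgeR quasi-likelihood fit of all 12 samples with TMM scaling (edgeR 4.0.16, R 4.3.3), with p-values adjusted over all 10577 genes by Benjamini-Hochberg and a threshold of 0.05. CPM were computed from the deposited counts with TMM-adjusted totals, and log2 fold changes are from the fit, with the default prior count of edgeR. A prior count of 2 entered the log2 CPM behind the correlations of same-numbered samples. At these depths (38064884 to 41737332 counts per sample), counting error is small beside replicate spread except near 0 reads. The floor of 3 counts covers counting error only. Coordinates are from the Ensembl BDGP6 annotation of the dm6 assembly, where 13934 symbols matched and 228 did not. Alternatives were DESeq2 1.42.0, other scalings, count filters, a replicate block and leaving out each library. The fits were tested on simulated counts.

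Named genes are the 12 per direction with the smallest adjusted p whose samples do not overlap, the 6 per direction with the largest log2 fold change among those with a mean of at least 1 CPM, up to 6 called members of each list (else the one with the smallest p), genes that check the labels and genes the study's text names. Others were chosen after their values were seen. The comparison, members and lists were chosen with earlier results of these data known.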

Additional observations from a re-analysis of the deposited data

Results flagged for a closer look

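For 7 genes the difference from AD was not the same with the truncated and the full-length protease, by the direct test of AD + Yip7∆S over AD + Yip7 in the edgeR fit of all 12 samples. Groups of 3 samples were not searched for single outlying samples. Each value below is a log2 fold change, and both differences from AD use the same AD samples.

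The gene rt differed by 3.59 between AD + Yip7∆S and AD + Yip7 (SE 0.14, adjusted p = 4.28e-08), with 3.39 for AD + Yip7∆S over AD and -0.20 for AD + Yip7 over AD. CG43168 differed by 7.84 (SE 0.85, adjusted p = 0.00158), with 8.17 for AD + Yip7∆S and 0.33 for AD + Yip7. At JIL-1 the difference was 1.24 (SE 0.14, adjusted p = 0.00174), from 1.38 and 0.14 in the same order, and at Nep3 it was 1.37 (SE 0.17, adjusted p = 0.00352), from 1.46 and 0.09. In these 4 genes all 3 AD + Yip7∆S samples were above all 3 AD + Yip7 samples.

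Lower values in AD + Yip7∆S than in AD + Yip7 were found at Ankle2, with -1.47 (SE 0.12, adjusted p = 0.000132), where AD + Yip7∆S over AD was -0.11 and AD + Yip7 over AD 1.35. Dhc16F gave -4.29 (SE 0.37, adjusted p = 0.000132), from 0.56 and 4.85, and Ilp3 gave -1.08 (SE 0.17, adjusted p = 0.0388), from -0.30 and 0.78. In these 3 genes all AD + Yip7∆S samples were below all AD + Yip7 samples.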

How the results depend on the processing

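Both DESeq2 fits called more genes than edgeR, and the cause was not tested. For AD + Yip7∆S over AD, DESeq2 on all 12 samples called 483 genes (219 higher, 264 lower) and on the 6 samples 360 (164 higher, 196 lower), against 196 in edgeR. edgeR on the 6 samples, with fewer samples for the spread, called 119 (48 higher), and 97 of the 196 genes were among them. For AD + Yip7∆S over AD + Yip7 the counts were 132 and 123 in the DESeq2 fits and 16 without a count filter, against 7. For AD + Yip7 over AD the DESeq2 counts were 434 and 493, against 191.

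With 1 library left out at a time, 74 to 221 genes were called for AD + Yip7∆S over AD (38 to 98 higher, 34 to 129 lower), 6 to 15 for AD + Yip7∆S over AD + Yip7, 1365 to 2323 for AD + Yip7∆S over Control, 1893 to 3267 for AD over Control and 79 to 264 for AD + Yip7 over AD. Where an arm kept its other 2 samples the spread was estimated over all groups. For AD + Yip7∆S over AD + Yip7 the count was 13 without AD + Yip7 replicate 1, 15 without AD + Yip7 replicate 3 and 12 without Control replicate 1.

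Counts for AD + Yip7∆S over AD stayed within 1.5 times of 196 with DESeq2 size factors (213), upper quartile scaling (211), TMM without ribosomal protein and digestive enzyme genes (210), no count filter (234) and 10 counts in each library (167). The replicate numbers do not pair the samples by the descriptions: same-numbered AD + Yip7∆S and AD samples deviated from their group means with correlations across genes of -0.02, 0.23 and 0.13. With the replicate number as a block, 186 genes were called (84 higher, 102 lower), 160 of them among the 196. Of the 196 calls, 52 were kept under every alternative that gave a value, 144 were lost under at least 1 and 0 changed sign.

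Genes near 0 reads were the most limited by depth: with 10 counts required in each library, 39 of the 196 genes could not be tested.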

Other observations

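The genes below lie outside the lists and were picked once their values were known. A pair of higher genes, besides e, work in the recycling and loading of histamine, the transmitter of fly photoreceptors. No list of histamine genes was tested. In the dopamine, serotonin and octopamine list, e was the 1 called gene of 27 tested (1.85% of all genes were called). Balat, a transporter of β-alanine in glia, had 20.8, 12.3 and 15.2 CPM in AD + Yip7∆S, against 4.60, 5.32 and 5.26 CPM in AD, with 4.11, 6.44 and 12.9 CPM in AD + Yip7 and 12.8, 15.9 and 14.5 CPM in Control (log2 fold change 1.67 ± 0.32 SE, adjusted p = 0.022). The vesicular histamine transporter gene lovit had 92.7, 79.1 and 82.9 CPM in AD + Yip7∆S, against 53.3, 45.7 and 38.5 CPM in AD, with 46.03, 50.7 and 65.8 CPM in AD + Yip7 and 57.95, 88.4 and 87.8 CPM in Control (log2 fold change 0.89 ± 0.18 SE, adjusted p = 0.0276). At both genes the AD + Yip7∆S samples were above every AD sample and overlapped Control. The Balat call was lost without AD + Yip7∆S replicate 1 or 3 or any AD library (adjusted p up to 0.0831) and the lovit call without AD + Yip7∆S replicate 1 or 3 or AD replicate 2 or 3 (adjusted p up to 0.104).

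The gap junction gene ogre had 162, 167 and 179 CPM in AD + Yip7∆S, against 129, 115 and 102 CPM in AD, with 142, 138 and 149 CPM in AD + Yip7 and 171, 177 and 175 CPM in Control (log2 fold change 0.56 ± 0.09 SE, adjusted p = 0.0112), a call kept without each single library. zyd, a sodium, calcium and potassium exchanger studied in cortex glia, had 85.8, 77.3 and 87.4 CPM in AD + Yip7∆S, against 64.4, 57.9 and 55.1 CPM in AD (log2 fold change 0.50 ± 0.10 SE, adjusted p = 0.022), lost without AD + Yip7∆S replicate 1 or 3 or AD replicate 2 or 3 (adjusted p up to 0.0834). The clathrin heavy chain gene Chc had 576, 519 and 493 CPM in AD + Yip7∆S, against 377, 345 and 345 CPM in AD, with 348, 374 and 401 CPM in AD + Yip7 and 334, 403 and 402 CPM in Control (log2 fold change 0.57 ± 0.11 SE, adjusted p = 0.0187), so that its AD + Yip7∆S samples were above all 9 others. This call was lost without AD + Yip7∆S replicate 1 or AD replicate 2 or 3 (adjusted p up to 0.0785). The galactosidase gene Ect3 had 68.1, 50.4 and 56.4 CPM in AD + Yip7∆S, against 20.5, 16.1 and 24.8 CPM in AD (log2 fold change 1.51 ± 0.27 SE, adjusted p = 0.0153), lost without AD + Yip7∆S replicate 1 or AD replicate 1 or 2 (adjusted p up to 0.0734).

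Among lower genes, 2 encode homeodomain factors of neural patterning. exex had 1.07, 1.04 and 0.622 CPM in AD + Yip7∆S, against 3.12, 4.01 and 1.93 CPM in AD, with 0.874, 2.26 and 1.37 CPM in AD + Yip7 and 0.995, 0.773 and 0.863 CPM in Control (log2 fold change -1.72 ± 0.37 SE, adjusted p = 0.0349), and vnd had 0.379, 0.679 and 0.233 CPM in AD + Yip7∆S, against 1.51, 1.76 and 1.12 CPM in AD, with 0.609, 0.784 and 0.612 CPM in AD + Yip7 and 0.472, 0.362 and 0.336 CPM in Control (log2 fold change -1.75 ± 0.37 SE, adjusted p = 0.0333). Both were low in AD + Yip7∆S and Control, and the AD libraries held the highest values of vnd. The exex call was lost without any AD + Yip7∆S library, AD replicate 1 or 2 or Control replicate 3 (adjusted p up to 0.131) and the vnd call without AD + Yip7∆S replicate 1 or 3 or any AD library (adjusted p up to 0.121).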
